A study of Ovis aries with 16 samples.

Results

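Left ventricles of fetal sheep infused with angiotensin II were compared with those of their untreated twins. The comparison used 8 of the 16 arrays of the study, chosen by their titles and paired by the twin set that the labels give: 4 angiotensin II fetuses and 4 untreated fetuses, from 4 of the 8 twin sets. The other 8 arrays, of twin sets 1 to 4, came from losartan fetuses and their untreated twins. In the main fit they entered the estimate of the spread and left the estimated differences unchanged. They also counted in the choice of probes to test and in the mean signal by which a gene's probe was chosen. Estimates with slide and array row as further blocks drew on them too, and their untreated twins served for comparison below. Catheters were placed in a femoral artery and vein at 125 to 126 days of gestation, where term is 145 days, and hearts were taken after 5 days of treatment. The angiotensin II fetuses received the peptide by intravenous infusion, labelled both as daily and as continuous. The untreated fetuses are labelled as having had no infusion, and whether they also carried catheters is not said. The tissue is labelled as left ventricular free wall in one place and as free wall with septum in another, and each array averages all cell types of that piece. Dose, sex and blood pressure are not given in the labels used here.

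Angiotensin II is the active hormone made by the renin-angiotensin cascade. It acts mainly on the type 1 receptor, which raises arterial pressure, contracts smooth muscle and can promote growth of heart muscle and matrix, while the type 2 receptor is abundant in fetal tissue and often opposes it. In late gestation sheep the heart is passing from growth by division of its muscle cells to growth by their enlargement, which is the question the infusion addresses. In such a bulk sample, more cells of a type and more RNA per cell cannot be told apart.

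RNA was amplified, labelled with Cy5 and hybridized to a 1-colour Agilent sheep array, 1 array per fetus. A signal here is the log2 processed signal of a probe minus the 75th percentile of its array, and a log2 ratio is the angiotensin II fetus minus its own twin. The number of arrays, 4 against 4, limits the precision. On each array of the arm 59.5% to 64.1% of the 15008 probes were well above background. Of 4 tested heart muscle markers, MB (myoglobin) and TPM1 (alpha tropomyosin) were among the brighter named genes, with mean signals of 5.83 and 6.27. The other markers were dimmer, MYH7 at 1.64 and TNNC2 at -1.98. All 4 were well above background on 8 of 8 arrays.

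The placement of the arrays touches every value below. Each slide held 2 angiotensin II fetuses and 2 untreated twins of this arm, and in sets 6 and 8 the pair lay on 1 slide. All 4 angiotensin II arrays were in array row 2, while 3 of the 4 untreated twins were in row 1. On 3 arrays of the study the profile stood apart on the first principal component (32.1% of the variance), with scores of 30.1 to 39.8 against -19.0 to -0.435 for the other 13: the angiotensin II fetuses of sets 7 and 8 and the untreated twin of set 2, all in row 2 of slide 2. Their control corner spots had log2 signals of 17.2 to 17.7, against 14.4 to 15.4 on the rest. The fourth array in row 2 of slide 2, the losartan fetus of set 4, did not stand apart (score -8.31, corner signal 15.3). The estimates are therefore also given without twin sets 2, 7 and 8, where they rest on sets 5 and 6.

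The array measures each gene through 60-base probes, and several genes that lead the results are known only through the match of such a probe to a sheep transcript. The probes shown are those of genes at either end of the comparison. In the first pair the capitals mark a stop codon found at the end of 1 reading frame through the probe.

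MYL9: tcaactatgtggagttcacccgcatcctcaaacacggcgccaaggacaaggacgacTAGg
INHBA: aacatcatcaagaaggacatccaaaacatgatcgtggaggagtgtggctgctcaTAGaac

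A cyclin and a kinase of cell division, and a growth factor on the lower side, were measured by single tested probes, here in lower case throughout.

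CCNA2: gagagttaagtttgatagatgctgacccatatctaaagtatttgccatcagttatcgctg
CDK1: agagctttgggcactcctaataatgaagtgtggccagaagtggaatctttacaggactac
FGF1: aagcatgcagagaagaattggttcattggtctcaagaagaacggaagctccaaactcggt

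Where a gene had 2 probes they often overlapped, and capitals mark the bases the 2 probes share. The probes of PCNA share 30 bases and those of CPT1B 40, so their agreement is not independent evidence.

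PCNA probe 1: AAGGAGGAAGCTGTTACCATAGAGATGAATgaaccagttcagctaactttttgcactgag
PCNA probe 2: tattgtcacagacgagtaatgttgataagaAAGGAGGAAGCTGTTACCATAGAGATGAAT
CPT1B probe 1: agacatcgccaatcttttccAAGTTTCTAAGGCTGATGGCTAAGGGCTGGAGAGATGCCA
CPT1B probe 2: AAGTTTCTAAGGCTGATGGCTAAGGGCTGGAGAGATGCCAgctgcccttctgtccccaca

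Across the array no difference passed the threshold. Of 8970 probes tested, 0 (0.00%) had an adjusted p under 0.05 in limma, and the smallest adjusted p was 0.426. An unadjusted p under 0.05 was reached by 937 probes (10.4%), 436 higher (4.86%) and 501 lower (5.59%). The signal was higher in 4 of 4 twin sets for 699 probes (7.79%) and lower in 4 of 4 for 984 (11.0%). The groups of 4 arrays did not overlap for 149 probes on the higher side (1.66%) and 212 on the lower side (2.36%), and 45.5% of the probes had an estimate above 0. Among the 573 tested genes with a name, each represented by its brightest tested probe, 65 (11.3%) were higher and 55 (9.60%) lower in 4 of 4 sets, 75 (13.1%) had an unadjusted p under 0.05 (8.55% higher and 4.54% lower). Their groups did not overlap in 2.97% on the higher side and 1.75% on the lower, and their median estimate was 0.05 on the log2 scale against -0.03 over all probes. None of the differences below passed the test, so they are described by their values in the 4 twin sets.

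The smooth muscle genes MYL9 and CNN1 were higher in every twin set. MYL9, the regulatory light chain that switches smooth muscle myosin on, had signals of 5.05, 5.58, 5.62 and 5.53 in the angiotensin II fetuses of sets 5 to 8. Their untreated twins had 4.46, 4.56, 4.44 and 4.61. Every angiotensin II fetus was thus above every untreated one. The estimate was 0.93 (SE 0.14, limma adjusted p = 0.426), or 1.90-fold, and the dimmer probe, printed above, gave 0.96. MYL9 is named here from the array description of the brighter probe, a match to the chicken smooth muscle light chain, and the dimmer probe was joined to it by sequence cluster. CNN1 (calponin), an actin-binding protein of smooth muscle, had signals of 4.19, 4.22, 4.13 and 4.80 with angiotensin II and 3.32, 2.09, 3.45 and 4.13 without. Its treated fetuses were close together, whereas the untreated twins were widely spread, with the lowest in set 6 and an overlap through set 8. The estimate of CNN1 was 1.09 (SE 0.25, limma adjusted p = 0.447), and 0.74 without set 6.

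MYLK, the kinase that phosphorylates this light chain, had log2 ratios of -0.90, -0.10, -0.26 and 0.48 and an estimate of -0.20 (SE 0.47), which was 0.050 with slide and row as further blocks and -0.50 without sets 2, 7 and 8. RHOA, the small GTPase that sensitizes smooth muscle to calcium, had treated signals of 1.98 to 2.15 against 1.77 to 1.87, which did not overlap. Its estimate of 0.22 (SE 0.10) was below 0 with normexp and in the authors' value table (-0.0034 and -0.01) and 0.20 without sets 2, 7 and 8, and its other 2 probes gave -0.14 and -0.06. Of the 3 tested smooth muscle genes, 2 were higher in 4 of 4 sets, against 11.3% of all named genes. The gene lists were chosen with earlier results of these data known, so this share and those of the lists below are descriptions only. As markers of smooth muscle cells, MYL9 and CNN1 had a summed log2 level of 5.68 to 6.21 in the treated and 4.80 to 5.39 in the untreated fetuses, and the part of cell number in this was not tested. The fibroblast markers had 5.32 to 5.81 and 5.53 to 5.85. Array row moved with the group for these genes: with slide and row as further blocks MYL9 had an estimate of 1.12 and CNN1 of 1.22, and without sets 2, 7 and 8 they had 0.81 and 1.503. On the untreated twin of set 2, which had the array profile of sets 7 and 8 without the peptide, MYL9 (4.28) and CNN1 (2.94) were below the other 3 untreated twins of its arm (4.45 to 4.99 and 2.95 to 3.72).

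**Figure D1:**
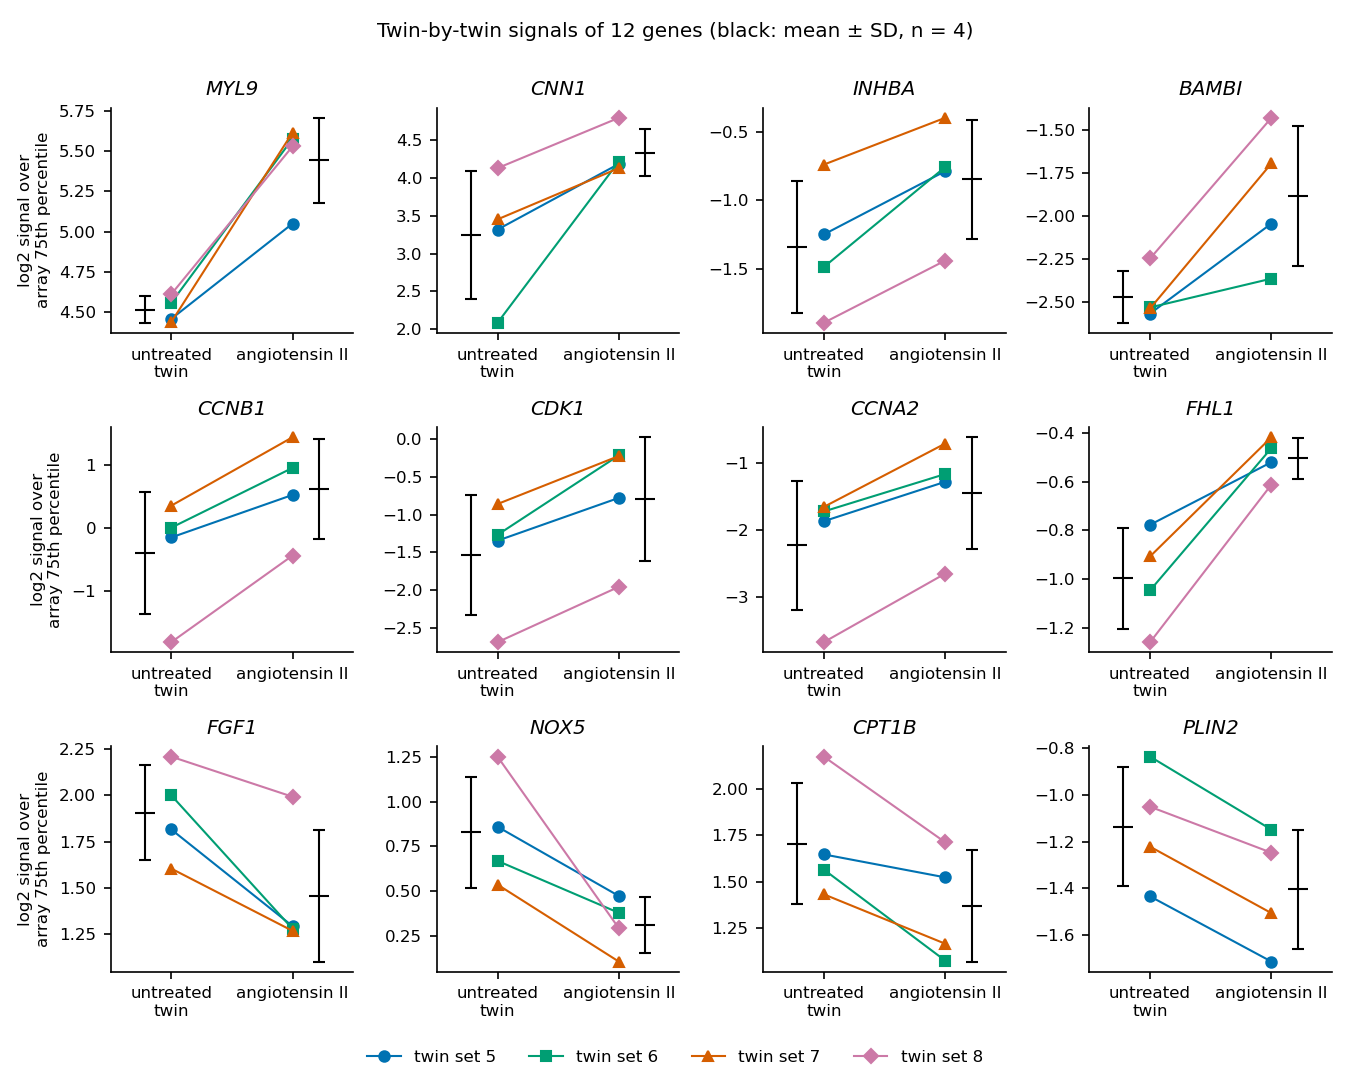
Log2 signal of 12 genes in each untreated twin and angiotensin II fetus, joined by twin set, with the group mean and SD beside the points (n = 4). MYL9, FHL1 and NOX5 do not overlap between the groups. In CCNB1, CDK1 and CCNA2 both fetuses of set 8 lie lowest of their group, and all 4 lines rise.

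Signalling by the activin and transforming growth factor family held 2 of the genes with the smallest p. INHBA encodes the subunit of activin A, a secreted ligand of this family. Its signals were -0.79, -0.76, -0.40 and -1.44 with angiotensin II and -1.25, -1.49, -0.74 and -1.90 in the twins. The groups overlapped because the twin sets differed in level, but within sets the log2 ratios were alike, at 0.46, 0.73, 0.34 and 0.46. The estimate was 0.50 (SE 0.11, limma adjusted p = 0.442), and 0.59 for its other probe, which shares 59 bases. Without sets 2, 7 and 8 it was 0.60.

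BAMBI, a decoy receptor that blunts signalling by this family, had signals of -2.04, -2.37, -1.69 and -1.43 against -2.57, -2.53, -2.54 and -2.25. The untreated fetuses of sets 5 to 7 were nearly equal, and the treated ones lay above their own twins by 0.52, 0.17, 0.85 and 0.82. Its estimate was 0.59 (SE 0.13, limma adjusted p = 0.447), with 0.38 at its other probe and 0.35 without sets 2, 7 and 8. In the untreated twin of set 2 BAMBI was high (-1.68 against -2.28 to -1.91 in the other untreated twins of the losartan arm). INHBA was low there (-1.08 against -0.88 to -0.02).

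Over the whole family, 14 of 16 tested genes had estimates above 0, against 59.5% of all named genes. Of the 16, 5 were higher in 4 of 4 sets, against 11.3% of all named genes. The list median was 0.14, with 0.06 without sets 2, 7 and 8 and 0.18 with slide and row as blocks. BMP6 and TGFB2, both ligands, were chosen after their values were seen. BMP6 had an estimate of 0.40 (SE 0.15), with log2 ratios of 0.17, 0.14, 0.59 and 0.68. Its other probe gave 0.24, with -0.23 in set 5. BMP6 was high in the untreated twin of set 2 (-1.54 against -2.31 to -1.82 in the other untreated twins of the losartan arm). The groups of TGFB2 did not overlap, with ratios of 0.14, 0.16, 1.64 and 1.10, and the untreated twin of set 2 was also high (-1.71 against -3.35 to -3.24 in the other untreated twins of that arm). Dim signal in at least 1 fetus limits the difference of TGFB2. Without sets 2, 7 and 8 the estimates were 0.16 for BMP6 and 0.15 for TGFB2.

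Of the tested genes of cell division, 3 of 4 mitosis genes and 4 of 7 DNA synthesis genes were higher in 4 of 4 sets, against 11.3% of all named genes. These counts include ASPM, whose set 8 signals (-4.22 and -4.49) both lay under the lowest signal well above background on their arrays (-3.75 and -3.52). They also include CCND3, with a ratio of 0.0094 in set 7. CCNB1, the cyclin of entry into mitosis, had signals of 0.52, 0.95, 1.43 and -0.44 with angiotensin II against -0.15, 0.00, 0.35 and -1.81. CDK1, the kinase it activates, had -0.78, -0.22, -0.22 and -1.95 against -1.34, -1.27, -0.86 and -2.69. CCNA2, a cyclin that acts from DNA replication into mitosis, had -1.28, -1.16, -0.71 and -2.65 against -1.87, -1.72, -1.65 and -3.68. In all 3 genes both fetuses of set 8 had the lowest signal of their group, so the groups overlapped, and within sets the ratios ran from 0.56 to 1.37. CCNA2 in the untreated twin of set 8 lay under the lowest signal well above background on that array (-3.52), so its difference in set 8 is known only as a bound.

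The estimate was 1.02 (SE 0.30) for CCNB1, 0.75 (SE 0.22) for CDK1 and 0.78 (SE 0.22) for CCNA2, with limma adjusted p of 0.451 to 0.458. With slide and row as further blocks they were 1.58, 1.23 and 1.15. CDK1 then had the smallest adjusted p of all probes (0.0922, limma). Without sets 2, 7 and 8 they were 0.81, 0.81 and 0.57. The untreated twin of set 2 was not raised in these genes (CCNB1 at -0.06 within -0.40 to 0.20, and CDK1 at -1.52 below -1.33 to -1.07).

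HMMR, a protein of the mitotic spindle, lacked a value at its brighter probe for the treated fetus of set 6, an outlier spot that was left out. In the other sets the log2 ratios of this probe were 0.63, 0.23 and 0.85, with an estimate of 0.57 (SE 0.23). The dimmer tested probe of HMMR had ratios of 0.19, 0.74, 0.14 and 0.29 in sets 5 to 8, with an estimate of 0.34 (SE 0.20). ASPM, which organizes the spindle poles, had ratios of 0.30, 1.07, 0.47 and 0.27. Its estimate was 0.53 (SE 0.36), and it was well above background in 3 fetuses of each group. All 4 tested mitosis genes had estimates above 0 (median 0.66), against 59.5% of all named genes.

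In the DNA synthesis list 6 of 7 were above 0 (median 0.37), against the same 59.5%. PCNA, the sliding clamp of the replication fork, had ratios of 0.22, 0.35, 0.66 and 0.24, an estimate of 0.37 (SE 0.11), and 0.35 at its overlapping probe. TYMS, which makes thymidylate, had ratios of 0.23, 0.81, 0.77 and 0.51 and an estimate of 0.58 (SE 0.20). CCND2, a cyclin of G1, had an estimate of 0.61 (SE 0.28) and was not higher in set 6. It was also high in the untreated twin of set 2 (3.14 against 1.81 to 2.42). That twin was also above the others of its arm in PCNA (0.35 against 0.07 to 0.20) and CDK2 (-1.65 against -2.21 to -2.13). The same held for CDK4 (-1.09 against -1.61 to -1.36) and CCND3 (-2.72 against -3.11 to -3.05). CCNA2 and TYMS were not raised there (-2.07 against -2.10 to -1.78, and -0.28 against -0.18 to 0.09). The interphase genes CDK2, CCND3 and CDK4 had estimates of 0.18, 0.12 and -0.02, with slide and row as further blocks of 0.17, -0.10 and 0.10, and without sets 2, 7 and 8 of 0.08, 0.11 and -0.12. With sets 5 and 6 of this arm alone the estimates were 0.68 for ASPM, 0.29 for PCNA, 0.52 for TYMS and 0.29 for CCND2. The brighter probe of HMMR had only its set 5 ratio there.

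**Figure D2:**
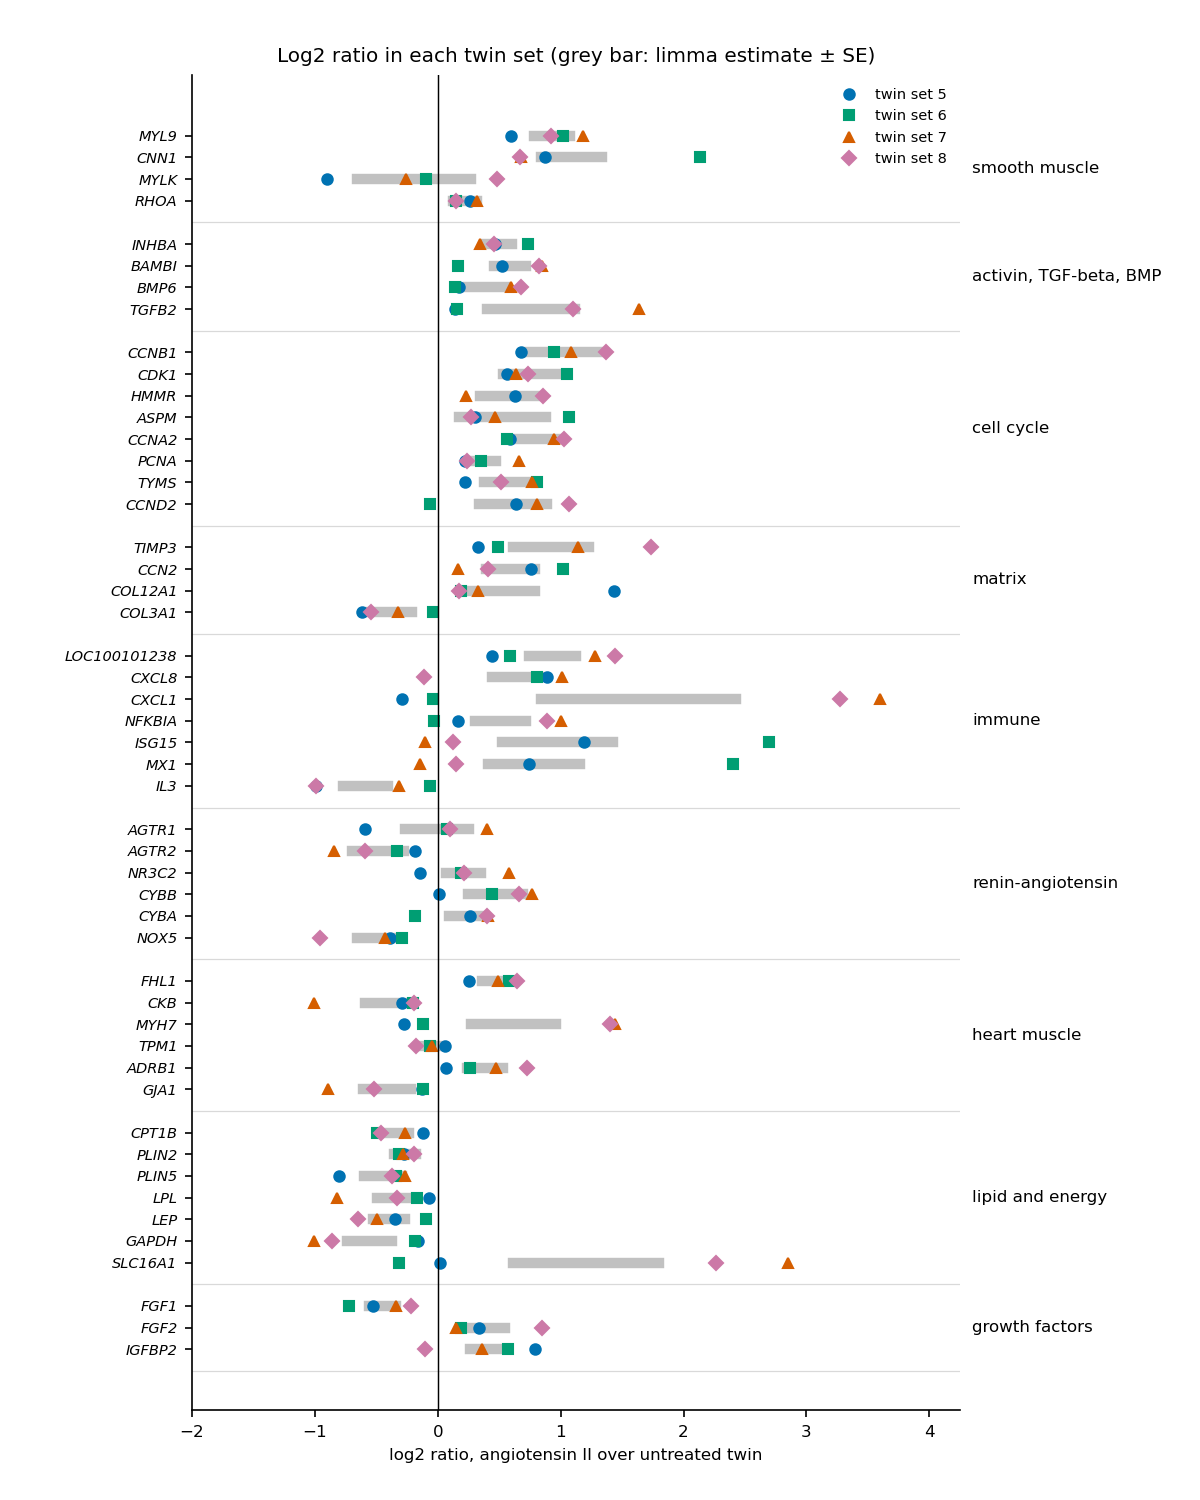
Log2 ratio of the angiotensin II fetus over its untreated twin for named genes, 1 marker per twin set, with the limma estimate and its SE as a grey bar. MYL9, CCNB1, CDK1 and CCNA2 have all 4 ratios above 0.5, whereas CXCL1, SLC16A1, MYH7 and TGFB2 are high in sets 7 and 8 alone and ISG15 and MX1 in sets 5 and 6. HMMR has no marker for set 6.

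Matrix genes gave a mixed picture. CCN2 (connective tissue growth factor), a matricellular protein, had signals of 0.85, 0.70, 0.58 and -0.37 against 0.10, -0.33, 0.41 and -0.78. Its ratios were largest in sets 5 and 6 (0.76 and 1.02), with an estimate of 0.59 (SE 0.20, limma adjusted p = 0.459), 0.50 at its second probe, which shares at most 6 bases in a row with the first, and 0.89 without sets 2, 7 and 8. TIMP3, an inhibitor of matrix proteases, had the opposite order, with ratios of 0.33, 0.49, 1.14 and 1.74. It was well above background in 4 treated fetuses and 1 untreated, and in the untreated twin of set 2 it stood at -1.67 against -3.45 to -3.33 in the others of that arm. Within the angiotensin II arm it met the detection filter in the treated group alone, so its estimate rests partly on signal at background. The estimate of TIMP3 was 0.92 (SE 0.31), and 0.41 without sets 2, 7 and 8.

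Of 8 tested collagen chains 6 had estimates above 0 (median 0.38), against 59.5% of all named genes. The list median was -0.10 without sets 2, 7 and 8. COL12A1 was at 0.53 (SE 0.25), with 1.44 in set 5. COL3A1, a chain of fibrillar collagen, was lower in 4 of 4 sets (estimate -0.38, SE 0.17) by its brightest probe, whereas its other 4 probes gave -0.02 to 0.31. Without sets 2, 7 and 8 COL12A1 had 0.82 and COL3A1 -0.33.

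Among cytokines, LOC100101238, a sheep chemokine described as regakine 1-like, had signals of -2.39, -1.13, -0.67 and -1.59 against -2.83, -1.71, -1.95 and -3.03. The ratios were 0.44, 0.58, 1.28 and 1.44, with an estimate of 0.94 (SE 0.19, limma adjusted p = 0.426) and 0.51 without sets 2, 7 and 8. It was also high in the untreated twin of set 2 (-1.54 against -2.99 to -2.61 in the other untreated twins of the losartan arm). CXCL8 (interleukin 8), a neutrophil attractant chosen after its values were seen, was higher by 0.89, 0.81 and 1.01 in sets 5 to 7 and at -0.11 in set 8. NFKBIA, the inhibitor of the NF-kappa-B factor, had ratios of 0.17, -0.03, 1.00 and 0.89. In the untreated twin of set 2 NFKBIA was high (0.23 against -0.50 to -0.20 in the others of its arm). IL3, a cytokine of blood cell growth, was lower in 4 of 4 sets (estimate -0.59, SE 0.18) near the limit of detection. The estimates without sets 2, 7 and 8 were 0.85 for CXCL8, 0.07 for NFKBIA and -0.53 for IL3. In all, 8 of 9 tested mediators had estimates above 0, against 59.5% of all named genes, and 5 of 9 without those sets.

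Of the leukocyte markers 3 of 6 tested were above 0 (median -0.04), against 59.5% of all named genes. Their summed level was 0.04 to 0.65 in the treated and 0.07 to 0.28 in the untreated fetuses. Another 9 of the named markers were too dim to test. The interferon-induced genes ISG15 and MX1 were high in 1 fetus. ISG15 had signals of 0.48, 3.51, 1.49 and -2.61 with angiotensin II and -0.71, 0.82, 1.59 and -2.74 without, so its ratio was 2.69 in set 6, 1.19 in set 5 and near 0 in sets 7 and 8. MX1 had ratios of 0.75, 2.40, -0.15 and 0.15. CATHL3, an antimicrobial peptide of neutrophils, was also highest in that fetus, with a ratio of 2.23 in set 6 against -0.61 to 0.61 in the rest. HBB (beta globin), an erythroid marker, had ratios of -1.42, -0.88, 0.15 and -1.70 and an estimate of -0.96 (SE 0.52). From sets 5 and 6 the estimates were 1.94 for ISG15, 1.57 for MX1, 0.81 for CATHL3 and -1.15 for HBB.

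**Figure D3:**
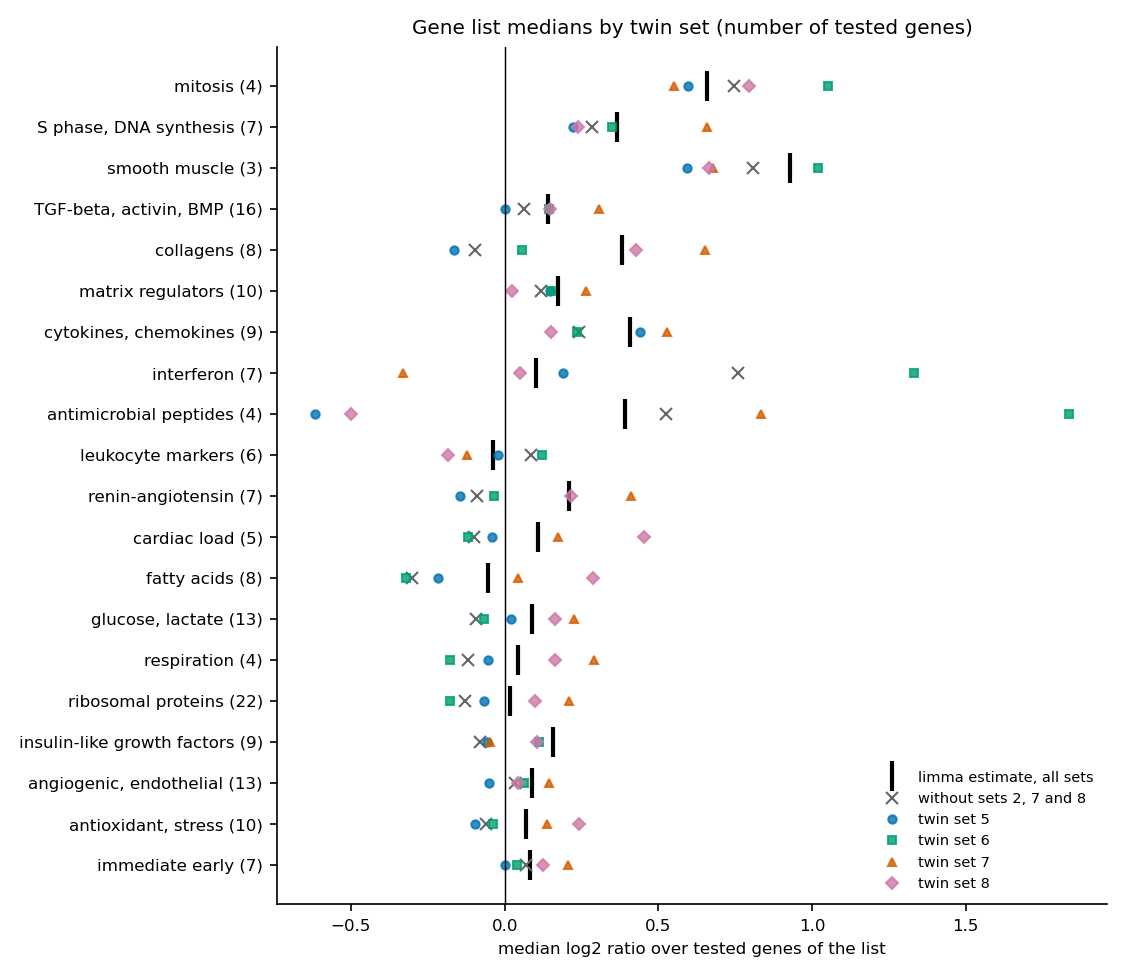
Median log2 ratio over the tested genes of 20 gene lists in each twin set, with the median limma estimate from all sets and without twin sets 2, 7 and 8. The mitosis and smooth muscle medians lie above 0.5 in every set, whereas the collagen median is below 0 in set 5 and at 0.65 in set 7.

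The growth factor FGF1 was lower in 4 of 4 sets, while of 8 tested genes of fatty acid handling 4 had estimates below 0 and 4 above. FGF1 (acidic fibroblast growth factor) had signals of 1.29, 1.28, 1.27 and 1.99 with angiotensin II against 1.82, 2.00, 1.60 and 2.21. Sets 5 to 7 were nearly equal after treatment, and set 8 was the highest in both groups. The estimate of FGF1 was -0.45 (SE 0.11, limma adjusted p = 0.451), or 1.37-fold lower, and -0.62 without sets 2, 7 and 8. FGF2, its basic relative, had an estimate of 0.38 (SE 0.17) and was higher in 4 of 4 sets, by 0.14 to 0.85 (0.26 without sets 2, 7 and 8). The other probe of FGF2 gave 0.35, with -0.03 in set 7. In the untreated twin of set 2 FGF2 was high (1.20 against -0.08 to 0.63 in the others of its arm).

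CPT1B, the muscle enzyme that admits long-chain fatty acids to mitochondria, had signals of 1.52, 1.07, 1.17 and 1.71 against 1.65, 1.57, 1.43 and 2.17. Its estimate was -0.34 (SE 0.10, limma adjusted p = 0.458), with -0.44 at its overlapping probe and -0.31 without sets 2, 7 and 8. PLIN2, which coats lipid droplets, was lower by similar amounts in every set by its brighter probe. Its signals were -1.71, -1.15, -1.51 and -1.25 against -1.43, -0.84, -1.22 and -1.05, with ratios of -0.28, -0.31, -0.28 and -0.20 and an estimate of -0.27 (SE 0.09, limma adjusted p = 0.459). The other probe of PLIN2, which shares 39 bases, gave -0.23, with ratios of -0.43, -0.44, -0.0011 and -0.06.

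PLIN5, the droplet protein of oxidative muscle, had ratios of -0.81, -0.34, -0.27 and -0.37. It was well above background in 1 treated fetus and in 4 untreated ones, so it entered the test through the untreated group and its estimate of -0.45 (SE 0.15) rests partly on signal at background. LPL, the lipase that supplies fatty acids and was chosen after its values were seen, had ratios of -0.07, -0.17, -0.82 and -0.33, but its other 2 probes gave 0.08 and 0.16. LEP, which encodes leptin, had an estimate of -0.40 (SE 0.13). Without sets 2, 7 and 8 the estimates were -0.30 for PLIN2, -0.57 for PLIN5, -0.12 for LPL and -0.22 for LEP. CPT1B and PLIN5 were the reverse of the array profile: both were higher in the untreated twin of set 2 (2.52 and -2.33) than in the other 3 of that arm (1.39 to 1.56 and -3.79 to -3.61), and lower in the treated fetuses of sets 7 and 8 than in their twins. In the fatty acid list 3 of 8 were lower in 4 of 4 sets (median -0.05), against 9.60% of all named genes. Without sets 2, 7 and 8 all 8 were below 0 (median -0.30), and the median over all named genes was -0.03. In that fit 3 of 22 ribosomal proteins were above 0, and 12 of 16 genes of the activin and transforming growth factor family. The share of all named genes above 0 in that fit was not counted.

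GAPDH, a glycolytic enzyme often used as a reference gene, had ratios of -0.16 and -0.18 in sets 5 and 6, but of -1.01 and -0.86 in the remaining sets. Its estimate was -0.55 (SE 0.18), and -0.17 without sets 2, 7 and 8. Its 5 tested probes gave -0.55 to -0.12. The 2 nearest 0 share 20 to 23 bases, as reverse complement, with another 2 of the probes. In the untreated twin of set 2 GAPDH was low (4.72 against 4.98 to 5.48 in the others of its arm).

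Of the receptors of the peptide, AGTR1 had an estimate near 0 and AGTR2 was on the lower side. AGTR1, the type 1 receptor, had signals of 0.31, 1.29, 1.87 and 0.60 with angiotensin II against 0.90, 1.21, 1.47 and 0.50, with an estimate of 0.00 (SE 0.26) and a ratio of -0.60 in set 5 alone on the lower side. AGTR2, the type 2 receptor, had -1.79, -2.37, -2.05 and -1.94 against -1.61, -2.03, -1.20 and -1.34. It was lower in 4 of 4 sets by its brighter probe (estimate -0.49, SE 0.21) and in 3 of 4 by the other (-0.46, with 0.04 in set 5). The estimate was -0.10 with slide and row as further blocks and -0.26 without sets 2, 7 and 8. NOX5, an oxidase that makes superoxide in response to calcium, had signals of 0.47, 0.38, 0.10 and 0.29 against 0.86, 0.67, 0.54 and 1.25. Its groups did not overlap, and the estimate was -0.52 (SE 0.14, limma adjusted p = 0.451), with -0.17 at a second probe that shares 30 bases. In the untreated twin of set 2 NOX5 stood at 0.42, below the other untreated twins of the losartan arm (0.47 to 0.96). CYBB and CYBA, the membrane subunits of the phagocyte-type oxidase, had estimates of 0.47 and 0.22 (CYBA at -0.03 on slide 1 alone and -0.0065 in the value table), and NR3C2, the mineralocorticoid receptor, of 0.21. CTSD, a protease with renin-like activity, had 0.22. In the untreated twin of set 2 CYBB was high (-0.01 against -1.55 to -1.10 in the others of its arm). So were CYBA (-1.64 against -2.20 to -1.97), NR3C2 (2.57 against 2.09 to 2.43) and CTSD (0.76 against 0.13 to 0.51). In the renin-angiotensin list 4 of 7 tested genes were above 0, a share near the 59.5% of all named genes, and 3 of 7 without sets 2, 7 and 8, where the estimates were -0.26 for AGTR1, -0.34 for NOX5, 0.23 for CYBB, 0.04 for CYBA, 0.02 for NR3C2 and -0.09 for CTSD.

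In heart muscle, FHL1, a LIM protein of the sarcomere that responds to load, had signals of -0.52, -0.46, -0.42 and -0.61 with angiotensin II against -0.78, -1.05, -0.91 and -1.26. The groups did not overlap, and the treated fetuses had the smaller spread. The estimate was 0.49 (SE 0.13, limma adjusted p = 0.451), and 0.42 to 0.57 over all alternatives. CKB, the brain-type creatine kinase of the fetal heart, was lower in 4 of 4 sets (estimate -0.42, SE 0.17). TPM1 had ratios of -0.18 to 0.06 (estimate -0.0021 without sets 2, 7 and 8). ADRB1, the beta-1 adrenergic receptor, had ratios of 0.07, 0.27, 0.47 and 0.73. GJA1, a gap junction protein, did not overlap between groups (4.72 to 5.32 against 5.43 to 5.61) by its brightest probe, at -0.41 (SE 0.19), yet its other 3 probes ranged from -0.46 to 0.41. In the untreated twin of set 2 ADRB1 was high (-1.56 against -2.38 to -2.02 in the others of its arm). GJA1 was low there (4.88 against 5.51 to 5.77). Without sets 2, 7 and 8 the estimates were 0.42 for FHL1, -0.25 for CKB, 0.17 for ADRB1 and -0.12 for GJA1.

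The twin sets differed in which probes moved. Over all tested probes the log2 ratios of sets 7 and 8 correlated at 0.64, while those of any other 2 sets correlated at -0.10 to 0.08 (across probes, which are not independent replicates). Their SD was 0.35 and 0.33 in sets 5 and 6, and 0.55 and 0.49 in the other two. The untreated twin of set 2, set against the other 3 untreated twins of the losartan arm, had a profile that correlated at 0.75 with the ratios of set 7 and 0.59 with those of set 8, against -0.16 and -0.13 with sets 5 and 6. The cause of this shared profile was not tested.

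**Figure D4:**
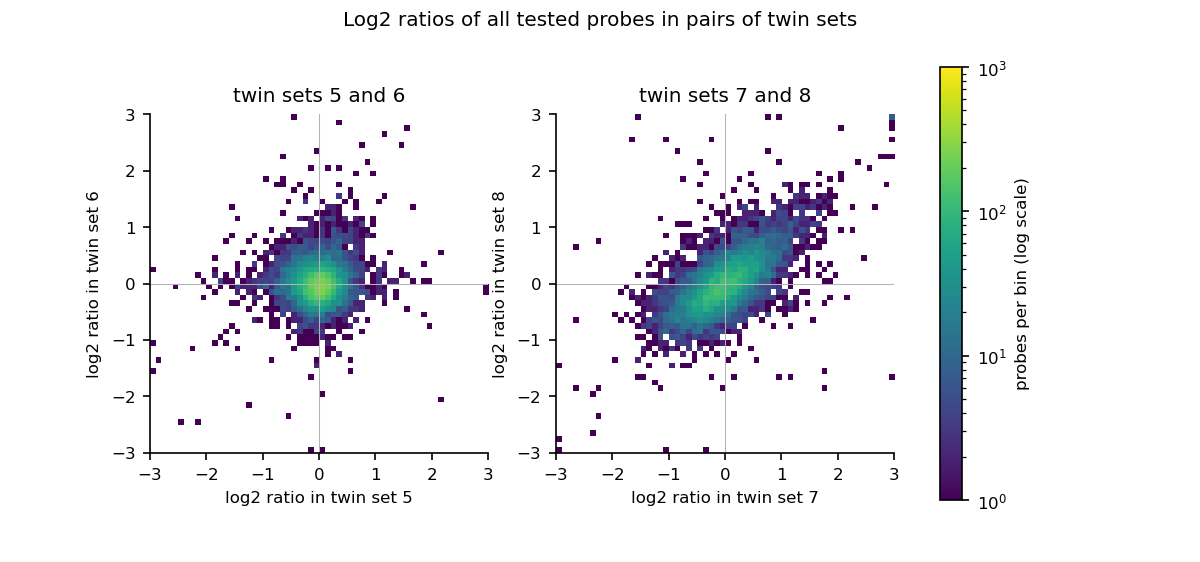
Density of all tested probes by their log2 ratios in twin sets 5 and 6 (left) and 7 and 8 (right), in bins of 0.1, with values beyond 3 drawn at the edge. The ratios of sets 7 and 8 lie along a diagonal (r = 0.64) and those of sets 5 and 6 do not (r = 0.08).

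There were 12 named genes, counted after their values were seen, that had ratios over 1 in sets 7 and 8 and within 0.5 of 0 in sets 5 and 6, and 12 of 12 were also higher in the untreated twin of set 2 than in the mean of the other 3 (median difference 1.72). On the other side 2 genes, also counted after their values were seen, had ratios under -1 in sets 7 and 8 and within 0.5 of 0 in the other sets, and 1 of 2 was higher in that twin. ITGB6, an integrin subunit, stood there at -2.99 (others -1.82 to -1.60), and LOC443398 at -2.23 (others -3.25 to -2.98). Their estimates were -0.72 each, and -0.12 and 0.069 without sets 2, 7 and 8. CXCL1, a neutrophil chemokine, had signals of 3.80, 3.91, 7.25 and 7.24 with angiotensin II and 3.65 to 4.09 without, and 7.45 in the untreated twin of set 2. SLC16A1, a lactate transporter, had -0.74, -0.97, 1.67 and 1.70 against -1.18 to -0.56, and 1.39 in that twin. MYH7, the slow myosin heavy chain, had 1.13, 1.08, 2.64 and 2.94 against 1.19 to 1.54, and 3.06 in that twin. The estimates of these 3 genes were 1.64, 1.20 and 0.61, and without sets 2, 7 and 8 they were -0.16, -0.15 and -0.19. On slide 2 alone, where both treated arrays are those that stood apart, 3.94% of the tested probes had a limma adjusted p under 0.05.

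**Figure D5:**
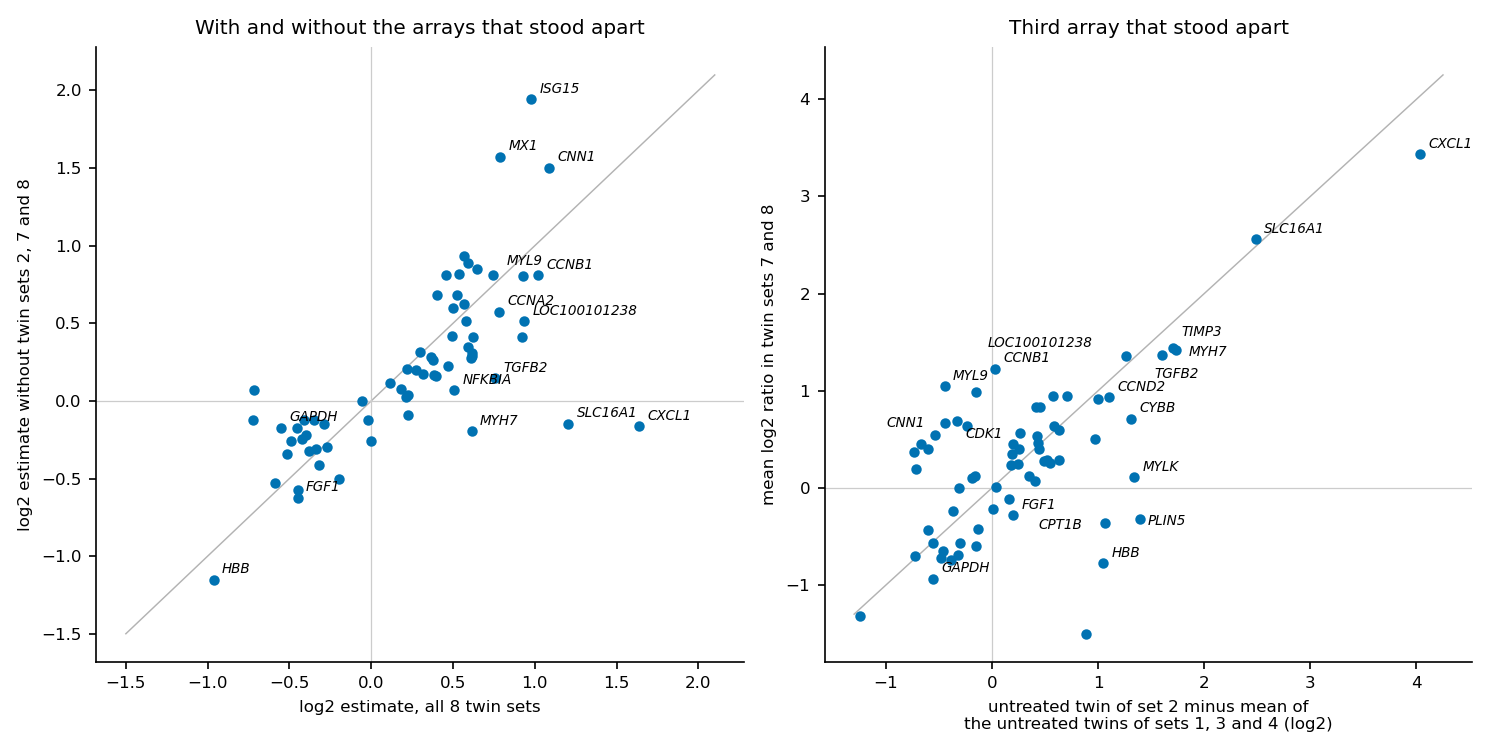
Left, limma log2 estimates of the named genes from all twin sets against those without sets 2, 7 and 8, with the line of equality. Right, the untreated twin of set 2 minus the mean of the other 3 untreated twins of its arm against the mean log2 ratio in sets 7 and 8: CXCL1, SLC16A1, MYH7, TIMP3 and TGFB2 lie near the line, and MYL9, CNN1, CCNB1 and CDK1 lie high at differences near or below 0. ASIP is left out of both panels.

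Several genes of other systems had small p-values without passing. LOC443338, which the files name by this identifier alone, had treated signals of 2.17 to 2.86 above untreated ones of 1.70 to 1.91 (estimate 0.62, SE 0.13, limma adjusted p = 0.426). EIF3A, a translation initiation factor, had an estimate of 0.61, and CTSB, a lysosomal protease, of 0.32 with 0.56 at its other probe. Each was higher in 4 of 4 sets by its brighter probe. The other probe of EIF3A gave 0.45, with -0.04 in set 6. The untreated twin of set 2 was above the others of its arm in LOC443338 (2.27 against 1.79 to 1.87). The same held for EIF3A (2.34 against 1.47 to 1.86) and CTSB (1.66 against 1.19 to 1.29). IGFBP2, which binds insulin-like growth factors, had ratios of 0.79, 0.57, 0.36 and -0.11. FOS and JUND, members of the AP-1 transcription factor, had estimates of 0.57 and 0.30 and were higher in 4 of 4 sets, FOS by 0.90 and 0.97 in sets 5 and 6. GUCY1B1, a subunit of the nitric oxide receptor, was higher in 4 of 4 sets by 0.18 to 0.43 at its brighter probe. Its other probe gave 0.22, with -0.03 in set 5. RPS6, a protein of the small ribosomal subunit, was lower without overlap (6.01 to 6.29 against 6.32 to 6.68). Of 22 tested ribosomal proteins 12 were above 0 (median 0.02), against 59.5% of all named genes. AHR, the aryl hydrocarbon receptor, and INSL3, a relaxin-like hormone, were lower in 4 of 4 sets, AHR near the limit of detection. POMC, the precursor of corticotropin, had an estimate of 0.61 with ratios of 0.68, -0.06, 0.64 and 1.20. In the untreated twin of set 2 POMC was high (-1.22 against -2.48 to -1.98). From sets 5 and 6 the estimates were 0.41 for LOC443338, 0.28 for EIF3A, 0.17 for CTSB, 0.68 for IGFBP2, 0.94 for FOS, 0.31 for JUND, 0.20 for GUCY1B1, -0.15 for RPS6, -0.17 for AHR, -0.41 for INSL3 and 0.31 for POMC.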

How the data were processed

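Per the file headers, the scanner files hold the intensity of each spot as Agilent Feature Extraction 10.7.3.1 wrote it, with background taken off and spatial trends removed. The value table that the authors deposited holds natural log values (r of 0.998 to 0.999 with the log of the mean spot signal); its scaling is unknown here, and it served as an alternative only. Values of repeated spots were averaged per probe after removal of control and outlier spots. The array's 75th percentile was subtracted from the log2 processed signal. Probes entered the test if at least 1 of the 4 groups had them well above background throughout. Differences were fitted in limma 3.58.1 (R 4.3.3) over all 16 arrays, with twin set as a block and a term for each treatment (6 residual degrees of freedom). Tests were two-sided, with Benjamini-Hochberg adjustment over all tested probes and a threshold of 0.05.

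The pairing is by the twin sets that the labels state; the replicate numbers in the titles do not follow them. As a check, twins' deviations from their group means had correlations of -0.04, 0.28, 0.15 and 0.53 in sets 5 to 8, the second and the last within a slide. The fit was also run on simulated data with 50 probes changed per size. It recovered 41 of 50 changes of 1 and 20 of 50 of 0.5 on the log2 scale. There were 13 false calls in that run over all sizes together. In the measured comparison no probe passed, and CNN1 and CCNB1 did not pass with estimates of 1.09 and 1.02. The simulated recovery may therefore overstate the sensitivity of the measured comparison.

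Names came from a RefSeq gene table, the array's annotation and shared sequence clusters, and 1796 of 15008 probes had one. Probe sequences are from the scanner files, which give no mapped positions. The 36 gene lists and the members of the comparison were chosen with earlier results of these data known. Each gene is represented by its tested probe with the highest mean. Genes named were the 10 with the smallest p among those higher, and the 10 among those lower, in 4 of 4 sets; the 2 with the smallest p of each list; and all tested mitosis, DNA synthesis, smooth muscle and renin-angiotensin genes. Some of the list genes so chosen are not described, and genes said to be chosen after their values were seen fall outside the rule. Alternatives varied the blocks, slides, twin sets, normalization, background correction, filter, value table and averaging of probes. Figures were drawn with matplotlib 3.10.9.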

Additional observations from a re-analysis of the deposited data

Results flagged for a closer look

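The highest or lowest of the 4 arrays of a group lay far from the other 3, by Dixon's rule, in 11 of the 136 groups checked. Chance flags about 1 in 20. Twin set 8 holds 9 of these. In the angiotensin II fetus of set 8, CNN1 was the highest at 4.80 (others 4.13 to 4.22) and FGF1 the highest at 1.99 (1.27 to 1.29). In the same fetus ASPM was the lowest at -4.22, CXCL8 at -3.40 (-2.50 to -2.41) and IGFBP2 at 0.88 (2.47 to 2.76). In the untreated twin of set 8, BAMBI was the highest at -2.25 (-2.57 to -2.53) and RPS6 the highest at 6.68 (6.32 to 6.38), while CCNA2 was the lowest at -3.68 (-1.87 to -1.65) and TYMS at -1.58 (-0.22 to -0.04). The angiotensin II fetus of set 5 had the lowest MYL9, at 5.05 (5.53 to 5.62). The untreated twin of set 7 had the lowest NFKBIA, at -0.54 (-0.15 to -0.07).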

How the results depend on the processing

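The count of probes past the threshold with angiotensin II was 0 with no replicate block, where the twin pairing was dropped, and 0 in every other alternative except 2: it was 353 on slide 2 alone and 1 without twin sets 2, 7 and 8, a probe with no name. The count of probes with an unadjusted p under 0.05 with angiotensin II was 649 without the block, against 937 with it. It was 515 with slide and row as further blocks, 319 on slide 1 alone, 2167 on slide 2 alone, 456 without twin sets 2, 7 and 8 and 1812 in the authors' value table. Leaving out each twin set in turn gave 371 to 1257, with 498 without set 7 and 371 without set 8. The probes higher in every twin set numbered 869 to 1546 and the probes lower in every twin set 1210 to 1884 when a set was left out, against 699 and 984. Without twin sets 2, 7 and 8 they were 2073 and 2507, and with no filter on dim probes 1111 were higher. A probe that agrees in every set also agrees in any fewer of them, so dropping sets or the filter can only raise these counts. The rise is therefore no measure of closer agreement. No count of agreeing sets exists for a single slide, where twins were not blocked.

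Of 1146 estimates of named genes under the alternatives, 29 had the other sign, in 15 genes, and 53 genes had none. On slide 1 alone these were MYH7 (-0.093), TPM1 (0.055), CYBA (-0.035), ADRB1 (-0.072) and CDK4 (0.053). On slide 2 alone they were MYLK (0.46), AGTR1 (0.54) and CATHL3 (-0.63). Without twin sets 2, 7 and 8 they were CXCL1 (-0.16), MYH7 (-0.19), SLC16A1 (-0.15), CTSD (-0.091) and LOC443398 (0.069). With slide and row as further blocks they were MYLK (0.050), CCND3 (-0.10) and CDK4 (0.10). Normexp gave AGTR1 0.071, CDK4 0.014 and RHOA -0.0034, and the value table gave AGTR1 0.065, CDK4 0.014, CYBA -0.0065 and RHOA -0.012. The mean of its probes put COL3A1 at 0.064. Leaving out each set in turn, MYLK ranged from -0.42 to 0.041, AGTR1 from -0.14 to 0.19, CDK4 ranged from -0.21 to 0.095 and CATHL3 from -0.14 to 0.81. On slide 2 alone 11 of the 68 genes compared under the alternatives passed, against 3.94% of all tested probes. Among them were CXCL1, SLC16A1, TIMP3 and NOX5. The 68 were named in part for their small p, and both treated arrays of that slide are those that stood apart. MYL9 ranged from 0.81 to 1.12 over the alternatives (limma adjusted p from 0.0596 to 0.998). Among named genes, dim signal in at least 1 fetus limits TIMP3, TGFB2, PLIN5, AHR, IL3, ASPM, CCNA2, ASIP and LOC443398.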

Other observations

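ASIP, which encodes the agouti signalling protein of pigmentation, was chosen after its values were seen. Its signals were 3.79, 4.74, 4.20 and 3.49 in the angiotensin II fetuses and 2.61, 4.38, 3.48 and -5.57 in the untreated twins of sets 5 to 8. Of the untreated twins, 3 had ASIP well above background. In that of set 8 it lay under the lowest signal well above background on the array (-3.52), so the difference in set 8 is known only as a bound. The ratios were 1.18, 0.36 and 0.72 in sets 5 to 7, and the estimate was 0.77 without twin sets 2, 7 and 8.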
